A study of Homo sapiens with 6 samples.

Results

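The genes described here encode the semaphorins, plexins, neuropilins, ephrins, Eph receptors, Slits, Robos, netrins and UNC5 receptors, the main families of axon guidance cues and their receptors. They were taken by name from the protein-coding entries of the count table, as every symbol that begins with SEMA, PLXN, ROBO, SLIT (SLITRK genes aside), NTN or UNC5, every EPHA, EPHB, EFNA or EFNB symbol with a number, and NRP1 and NRP2. The rule found 63 of the 24526 genes in the table, and 53 of them were counted often enough to be tested. The symbol rule also took in UNC50, which encodes a protein of the Golgi and is not a guidance receptor, so that 52 of the 53 tested genes belong to the guidance families. RNA was measured by RNA-seq in the human melanoma cell line WM266.4, in 3 libraries from cells that received an siRNA against RIPK4 (RIPK4.si) and 3 from cells that received a negative control siRNA (control.si in the labels and neg.si in the study), all taken after 48 h. An siRNA is a small RNA duplex, 1 strand of which guides the cleavage of matching transcripts, and RIPK4 is a serine/threonine kinase of the receptor-interacting protein family. Each arm received 1 siRNA, so effects through RIPK4 and effects of that siRNA on other transcripts cannot be told apart in these data, and transcripts of untransfected cells in the dish are part of each library.

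Guidance cues were first described as signals that attract or repel growing axons, and the same proteins steer the migration of neural crest cells, from which melanocytes descend. Semaphorins bind plexins, in class 3 together with a neuropilin coreceptor, and the plexin's intracellular domain acts on small GTPases that control the cytoskeleton and integrin adhesion. Ephrins are tethered to the membrane and bind Eph receptor tyrosine kinases on neighbouring cells, with signals in both directions, netrins bind DCC and UNC5 receptors, and Slits bind Robos.

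The libraries held between 28464057 and 31688095 counts. RIPK4 itself was at 85.8, 76.5 and 54.7 CPM (counts per 1000000, scaled by edgeR's TMM method) in control.si replicates 1, 2 and 3 and at 19.9, 16.7 and 21.5 CPM in RIPK4.si. Its log2 fold change was -1.90 (adjusted p = 0.0102). Melanocyte lineage markers were present in every library, and the summed level of the 8 markers was between 3573 and 4012 CPM in control.si and between 2635 and 2759 CPM in RIPK4.si. The lower sum came mainly from TYR, DCT, PMEL and S100B, while S100B, MITF, SOX10 and MLANA overlapped between the groups and TYRP1 was not lower in RIPK4.si, and the part of these markers in the results was not tested. Markers of fibroblasts, endothelium and blood summed to at most 2.56, 1.56 and 0.707 CPM, and of the 4 keratinocyte markers in the table KRT10 held nearly all of a sum of at most 16.3 CPM, while KRT5 and KRT14 were at 0 in 4 of the 6 libraries. The control.si libraries differed among themselves with the GC content of genes. The rank correlation across genes of GC content with the level in a library, relative to the mean of all libraries, was 0.555, 0.0815 and -0.547 in control.si replicates 1, 2 and 3 and between -0.0788 and 0.165 in RIPK4.si. In bulk RNA, fewer cells with a transcript and less of it in each cell cannot be told apart.

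Transcript levels of the guidance genes differed widely. To compare genes with each other, levels were divided by exonic length (CPM per kb). The plexin PLXNB2 was highest per kb, at 66.9 ± 21.6 CPM per kb in control.si and 86.2 ± 7.88 in RIPK4.si (SD, n = 3 each). NRP2, a coreceptor for class 3 semaphorins, followed with 52.7 ± 1.69 and 56.3 ± 10.4 CPM per kb. The highest semaphorin was SEMA6B (33.3 ± 11.8 and 26.3 ± 5.11), close to the Slit receptor ROBO1 (24.4 ± 6.15 and 32.0 ± 9.0) and to SEMA5A (27.4 ± 5.92 and 27.2 ± 10.3), and these 3 genes did not differ beyond the spread between libraries. By the mean of the 6 libraries the highest Eph receptor was EPHA3, at 21.0 ± 2.03 and 18.5 ± 1.14 CPM per kb, next to EPHB4, at 16.7 ± 5.46 and 19.4 ± 2.86, and the highest ephrin was EFNB3, at 8.85 ± 2.11 and 6.62 ± 1.98. The netrin, UNC5 and Slit families were far lower. Their highest members, NTNG2, UNC5B and SLIT2, reached means over the 6 libraries of 0.655, 0.160 and 0.110 CPM per kb. The 10 genes that were not tested were EPHA1, EPHA4, EPHA10, EPHB6, NTN3, NTN4, SLIT1, UNC5C, UNC5D and UNC5CL, the last of these a relative of the UNC5 receptors rather than a netrin receptor. They had between 7 (UNC5C) and 54 (NTN3) counts over the 6 libraries together, and where a library had 0 counts, as EPHB6 and UNC5D had in some libraries of both groups, up to 3 counts are allowed by chance. When all genes were fitted with no filter on low counts, none of the 10 was called and none had a p before adjustment under 0.05. SLIT1 had 3 counts in control.si and 14 in RIPK4.si, and UNC5CL had 25 and 12.

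**Figure D1:**
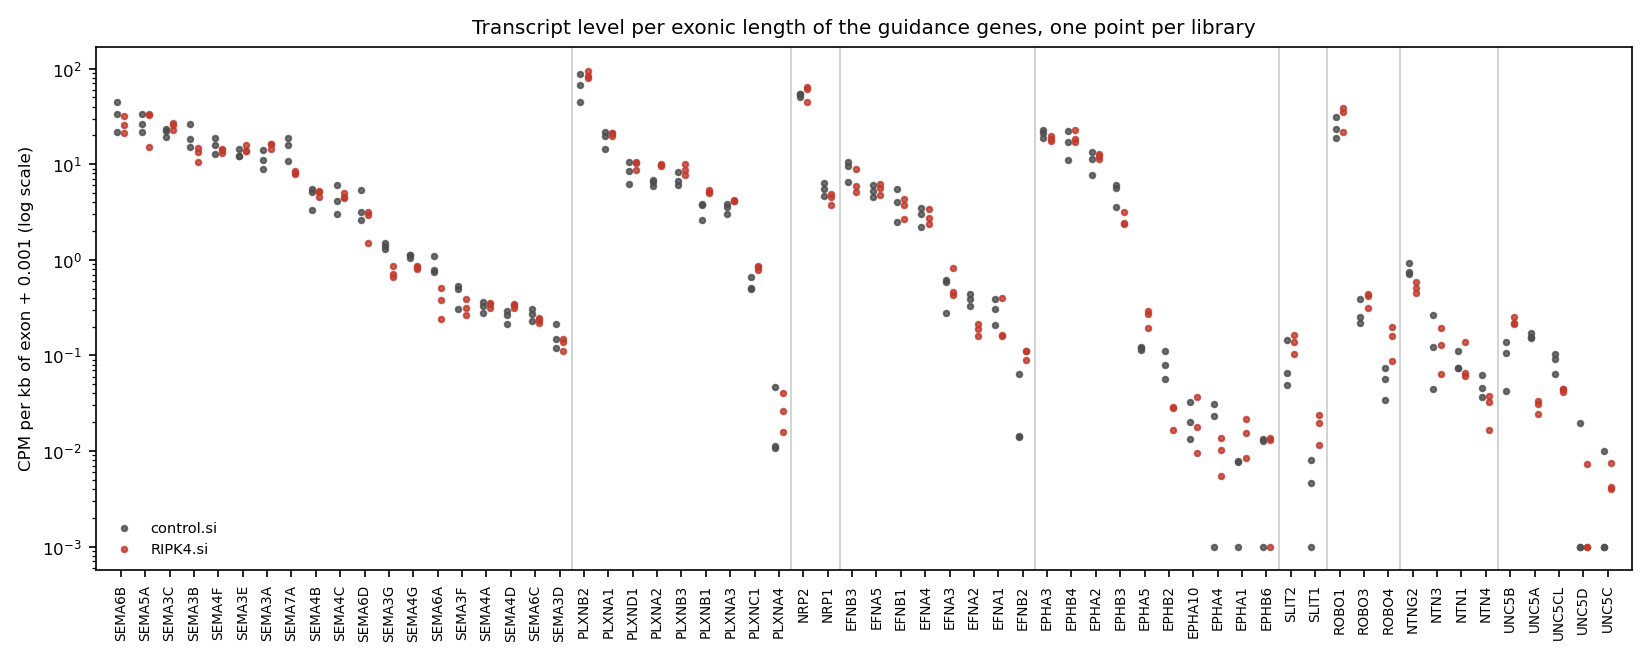
Transcript level of each guidance gene in each library, as CPM per kb of exon plus 0.001 on a log axis, with 3 grey points for control.si and 3 red points for RIPK4.si, and gene families separated by vertical lines. PLXNB2 and NRP2 lie highest and most UNC5, Slit and netrin genes lie under 1 CPM per kb, and the 2 colours overlap for most genes.

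To ask which guidance genes responded to RIPK4 silencing, the groups were compared with edgeR's quasi-likelihood test over all 16297 genes that passed its filter on low counts. UNC5A was the only one of the 53 tested members with an adjusted p under 0.05, a call made for 0.767% of all genes tested. It passed the filter on low counts only through control.si, where it had 20, 22 and 21 counts, beside 3, 4 and 4 in RIPK4.si. By the p before adjustment, 17 of the 53 members (32.1%) were under 0.05, with 10.8% of all genes tested as background. Of these 17, 8 were higher in RIPK4.si and 9 lower, beside 4.85% and 6.0% of all genes tested. DESeq2 called 7 of the 50 members for which it gave an adjusted p (SEMA3G, SEMA6A, SEMA7A, PLXNA2, EPHA5, EPHB2 and EPHB3) and 2.91% of all genes. When each library's trend on GC content was removed before edgeR's test, 8 members were called (UNC5A, SEMA3A, SEMA3G, SEMA6A, SEMA7A, PLXNA2, EPHB2 and EPHB3), beside 3.27% of all genes tested. Without control.si replicate 3, edgeR called 4 members (UNC5A, SEMA7A, EPHB3 and EFNB2), beside 1.78% of all genes tested. The 3 libraries of a group lay all above or all below the other 3 for 20 members (37.7%), beside 17.6% of all genes tested. For such a gene an exact two-sided permutation test gives p = 0.1, the smallest value that 3 libraries against 3 allow. The members did not move one way as a whole. Log2 fold changes (RIPK4.si over control.si) ran from -2.43 (UNC5A) to 1.75 (EFNB2). Their median was 0.069, where all genes tested had a median of -0.023. UNC5A and EFNB2 each passed the filter on low counts through the group where they were higher. The log2 fold changes were above 0 for 30 members and below 0 for 23, beside 46.6% of all genes tested above 0. Without control.si replicate 3 the split turned to 23 above and 30 below.

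**Figure D2:**
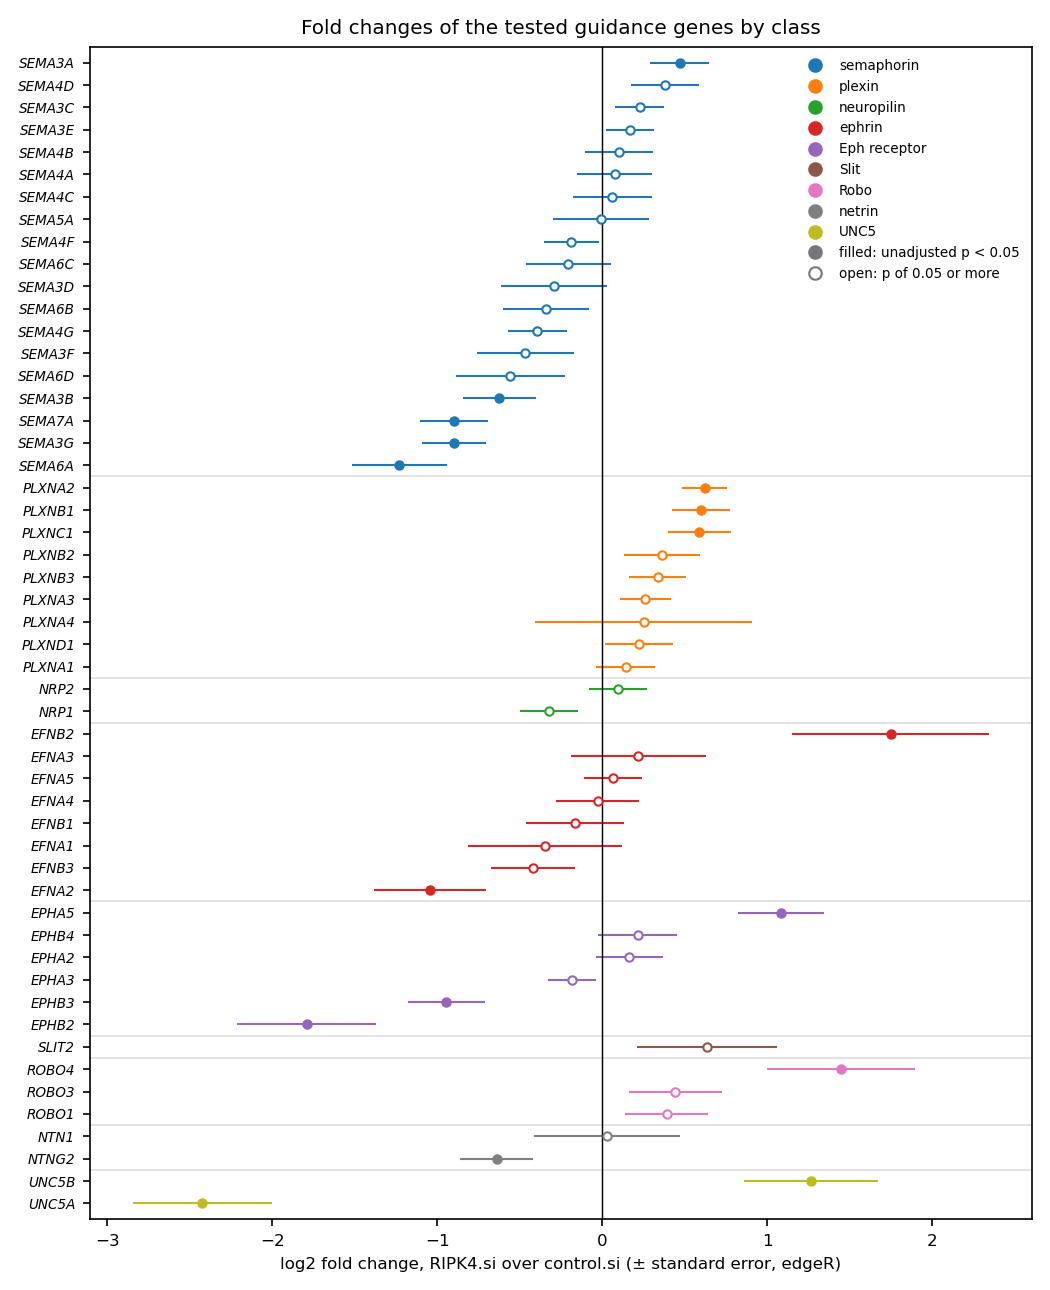
Log2 fold change of transcript levels, RIPK4.si over control.si, for the 52 tested genes of the guidance families, with the standard error from edgeR's quasi-likelihood fit as bars and families in separate colours. Filled points have a p before adjustment under 0.05, open points do not. The 9 plexins all lie to the right of 0 and the lowest point is UNC5A at -2.43.

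Among the UNC5 receptors, UNC5A and UNC5B had opposite signs. UNC5A (chr5:176810519-176880898 of GRCh38, plus strand) is a netrin receptor of the dependence receptor type, which can trigger apoptosis when no ligand is bound. Its level was 0.646, 0.733 and 0.661 CPM in control.si and 0.102, 0.138 and 0.129 CPM in RIPK4.si. The groups were far apart relative to their spread, but the level was low, with 63 counts in all of control.si and 11 in all of RIPK4.si, a ratio of 0.179 with an exact 95% interval of 0.0851 to 0.343 that covers counting error only. UNC5A fell by 2.43 on the log2 scale (SE 0.422, adjusted p = 0.0407, range over the alternatives 0.0234 to 0.311). The adjusted p was 0.0533 with no filter on low counts and 0.0717 with the replicate number as a block, and DESeq2 gave none. The call was also lost whenever a library other than control.si replicate 3 was left out, with adjusted p between 0.0870 and 0.311, in fits that called at most 0.418% of all genes. UNC5B (chr10:71212570-71302864, plus strand), a netrin receptor known from endothelium and nerve, was at 0.710, 0.932 and 0.283 CPM in control.si and at 1.70, 1.49 and 1.45 CPM in RIPK4.si. The RIPK4.si libraries were all higher, with a log2 fold change of 1.27 (SE 0.404), which did not pass the test (adjusted p = 0.247). An exon of UNC5A overlaps the gene HK3 on the opposite strand, and the counting ignored strand, so reads from the overlap could belong to either gene.

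Transcripts of the netrin ligands of these receptors were scarce. Netrin-1, from NTN1, was at 0.550 ± 0.139 CPM in control.si and 0.562 ± 0.282 CPM in RIPK4.si (SD, n = 3 each). NTNG2 (chr9:132161676-132244526, plus strand) encodes a netrin-G, anchored to the membrane by a lipid and not a ligand of UNC5 or DCC. Its level was 3.78, 4.70 and 3.59 CPM in control.si and 2.93, 2.53 and 2.28 CPM in RIPK4.si. Every RIPK4.si library was lower than every control.si library, and the log2 fold change was -0.64 (SE 0.222, adjusted p = 0.301).

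Among Slits and Robos, none passed the test. ROBO4 (chr11:124883691-124898500, minus strand), the Robo of endothelium, was at 0.484, 0.366 and 0.220 CPM in control.si and 1.06, 1.32 and 0.579 CPM in RIPK4.si. The groups did not overlap, with a log2 fold change of 1.45 (SE 0.448, adjusted p = 0.229), and the endothelial markers in the table summed to between 1.07 and 1.43 CPM in control.si and between 1.33 and 1.56 CPM in RIPK4.si, the part of which in the ROBO4 level was not tested. ROBO4 also shares exon sequence with 2 unnamed antisense genes. The far more abundant ROBO1 was at 209, 257 and 343 CPM in control.si and 432, 242 and 387 CPM in RIPK4.si, with overlapping groups and a 95% interval of the log2 fold change from -0.17 to 0.96. ROBO3, a divergent Robo of commissural axons, had a log2 fold change of 0.44 (SE 0.283, adjusted p = 0.679). It was 0.73 without control.si replicate 1 and 0.30 without control.si replicate 2. The ligand SLIT2 was at 0.710, 0.533 and 1.61 CPM in control.si and at 1.5, 1.14 and 1.8 CPM in RIPK4.si, which overlap, with a log2 fold change of 0.64 (SE 0.424, adjusted p = 0.706). Without control.si replicate 3 the log2 fold change of SLIT2 was 1.25 (adjusted p = 0.123), and without control.si replicate 2 it was 0.37.

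All 19 semaphorins in the table were tested. Log2 fold changes were below 0 for 12 of them and above 0 for 7 (46.6% of all genes tested were above 0), with a median of -0.20. A p before adjustment under 0.05 was found for 5, beside 10.8% of all genes tested, and 4 of these were lower in RIPK4.si (6.0% of all genes tested) and 1 higher (4.85%). None passed the adjusted test of edgeR.

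SEMA7A (chr15:74409289-74433958, minus strand) encodes a lipid-anchored semaphorin that binds plexin C1 and integrins and acts in melanocyte and immune cell migration. It was at 71.3, 59.8 and 41.2 CPM in control.si and at 29.7, 32.2 and 30.6 CPM in RIPK4.si. The RIPK4.si libraries were tightly grouped and all lower, at 53.6% of the control.si mean, with a log2 fold change of -0.90 (SE 0.204, adjusted p = 0.0970). The adjusted p was 0.00882 with DESeq2, 0.00504 with the GC trend removed and 0.00823 without control.si replicate 3, the lowest of the control.si libraries, in a range over the alternatives of 0.00504 to 0.473.

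SEMA3G (chr3:52433035-52445103, minus strand), a secreted semaphorin that binds neuropilin-2, was at 7.52, 6.59 and 7.02 CPM in control.si and at 4.36, 3.36 and 3.60 CPM in RIPK4.si. The groups did not overlap and both were narrow. The log2 fold change was -0.90 (SE 0.195), with an adjusted p of 0.0853 from edgeR, 0.0109 from DESeq2 and 0.0412 with the GC trend removed (range 0.0109 to 0.473).

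SEMA6A (chr5:116443616-116574934, minus strand), a transmembrane semaphorin that binds plexins A2 and A4, was at 8.59, 8.06 and 12.1 CPM in control.si and at 5.45, 2.63 and 4.15 CPM in RIPK4.si. It had the lowest fold change of the semaphorins, at 42.6% of the control.si mean and -1.23 on the log2 scale (SE 0.286). The adjusted p was 0.106 from edgeR, 0.00284 from DESeq2 and 0.0376 with the GC trend removed (range 0.00284 to 0.436). SEMA6A-AS1 and SEMA6A-AS2 overlap its exons on the opposite strand.

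SEMA3B (chr3:50267558-50277546, plus strand), a secreted semaphorin described as a tumour suppressor, was at 151, 106 and 87.6 CPM in control.si and at 85.6, 61.3 and 76.9 CPM in RIPK4.si. The groups nearly met, with a log2 fold change of -0.63 (SE 0.221, adjusted p = 0.316, range over the alternatives 0.0485 to 0.750). The lowest of that range came from removal of the GC trend together with a block on the replicate number, and without control.si replicate 1 the log2 fold change was -0.36. SEMA3A (chr7:83955777-84492724, minus strand), the secreted semaphorin that collapses growth cones through neuropilin-1 and class A plexins, went the other way. It was at 82.9, 103 and 129 CPM in control.si and at 134, 152 and 149.6 CPM in RIPK4.si, with 0.47 on the log2 scale (SE 0.181, adjusted p = 0.360, 0.0460 with the GC trend removed, range 0.0460 to 0.842). The highest control.si library of SEMA3A was just under the lowest RIPK4.si library.

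The groups did not overlap either for SEMA4G, with a log2 fold change of -0.39 (SE 0.179, adjusted p = 0.478), and for SEMA4D, the ligand of plexin B1, with 0.38 (SE 0.205, adjusted p = 0.580). The abundant SEMA6B was at 212, 157 and 101 CPM in control.si and at 101, 149 and 122 CPM in RIPK4.si. These ranges overlap, and the 95% interval of its log2 fold change ran from -0.93 to 0.25. The remaining semaphorins had log2 fold changes between -0.56 (SEMA6D) and 0.23 (SEMA3C). That of SEMA6D was -0.19 without control.si replicate 3 and -0.28 without RIPK4.si replicate 2.

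All 9 plexins had a log2 fold change above 0, beside 46.6% of all genes tested, with a median of 0.34, and 3 of the 9 had a p before adjustment under 0.05, beside 10.8% of all genes tested. None passed the adjusted test of edgeR. The sign was the same for all 9 under other normalizations, with DESeq2 and with the GC trend removed, but PLXNA1 had -0.012 without control.si replicate 3, and PLXNA4, with 73 counts over the 6 libraries, fell below 0 on leaving out control.si replicate 1, control.si replicate 2 or RIPK4.si replicate 3 and had 1.38 without control.si replicate 3. That replicate was the lowest control.si library for every plexin except PLXNA4 and PLXNC1, so the shared sign rests in part on 1 library. Without that library the log2 fold change was 0.045 for PLXND1, 0.15 for PLXNB2, 0.17 for PLXNA3 and 0.24 for PLXNB3. It was 0.45 for PLXNB1, 0.57 for PLXNA2 and, higher than with all libraries, 0.75 for PLXNC1.

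PLXNA2 (chr1:208022242-208244384, minus strand), a receptor of SEMA6A and, with neuropilins, of class 3 semaphorins, was at 89.9, 94.1 and 81.5 CPM in control.si and at 134, 135 and 139.7 CPM in RIPK4.si. The groups were well apart and the RIPK4.si mean was 154% of that of control.si, with a log2 fold change of 0.62 (SE 0.137). The adjusted p was 0.0898 from edgeR, 0.00914 from DESeq2 and 0.0223 with the GC trend removed (range 0.00914 to 0.489).

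PLXNB1 (chr3:48403854-48430086, minus strand), the receptor of SEMA4D that acts on RhoA, was at 36.5, 37.3 and 25.7 CPM in control.si and at 52.1, 48.8 and 49.9 CPM in RIPK4.si. Every RIPK4.si library was higher, with a log2 fold change of 0.60 (SE 0.177, adjusted p = 0.201). PLXNC1 (chr12:94148577-94307675, plus strand), the receptor of SEMA7A, described as a suppressor of melanoma progression, was at 4.94, 5.06 and 6.67 CPM in control.si and at 7.91, 8.72 and 8.49 CPM in RIPK4.si. These groups did not overlap either, with a log2 fold change of 0.59 (SE 0.193, adjusted p = 0.263). Exons of CEP83 and of unnamed genes lie opposite those of PLXNC1.

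PLXNB2, a receptor of class 4 semaphorins and per kb the most abundant of the guidance genes, was at 639.7, 494 and 326 CPM in control.si and at 577, 689 and 613 CPM in RIPK4.si. The control.si libraries alone spanned a wider range than the difference between the groups, and the 95% interval of the log2 fold change ran from -0.16 to 0.89. PLXNA3 was higher in every RIPK4.si library with a smaller log2 fold change of 0.26 (SE 0.152, adjusted p = 0.625), and PLXNB3, PLXND1, PLXNA1 and PLXNA4 lay between 0.14 and 0.34. Neither coreceptor passed the test. NRP2 was at 705, 746 and 744 CPM in control.si and at 882, 616 and 849 CPM in RIPK4.si, overlapping, with a 95% interval of the log2 fold change from -0.30 to 0.49. NRP1, the coreceptor of SEMA3A and of VEGF, had a log2 fold change of -0.32 (SE 0.174, adjusted p = 0.582). It was -0.41 without control.si replicate 1 and -0.20 without control.si replicate 3.

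**Figure D3:**
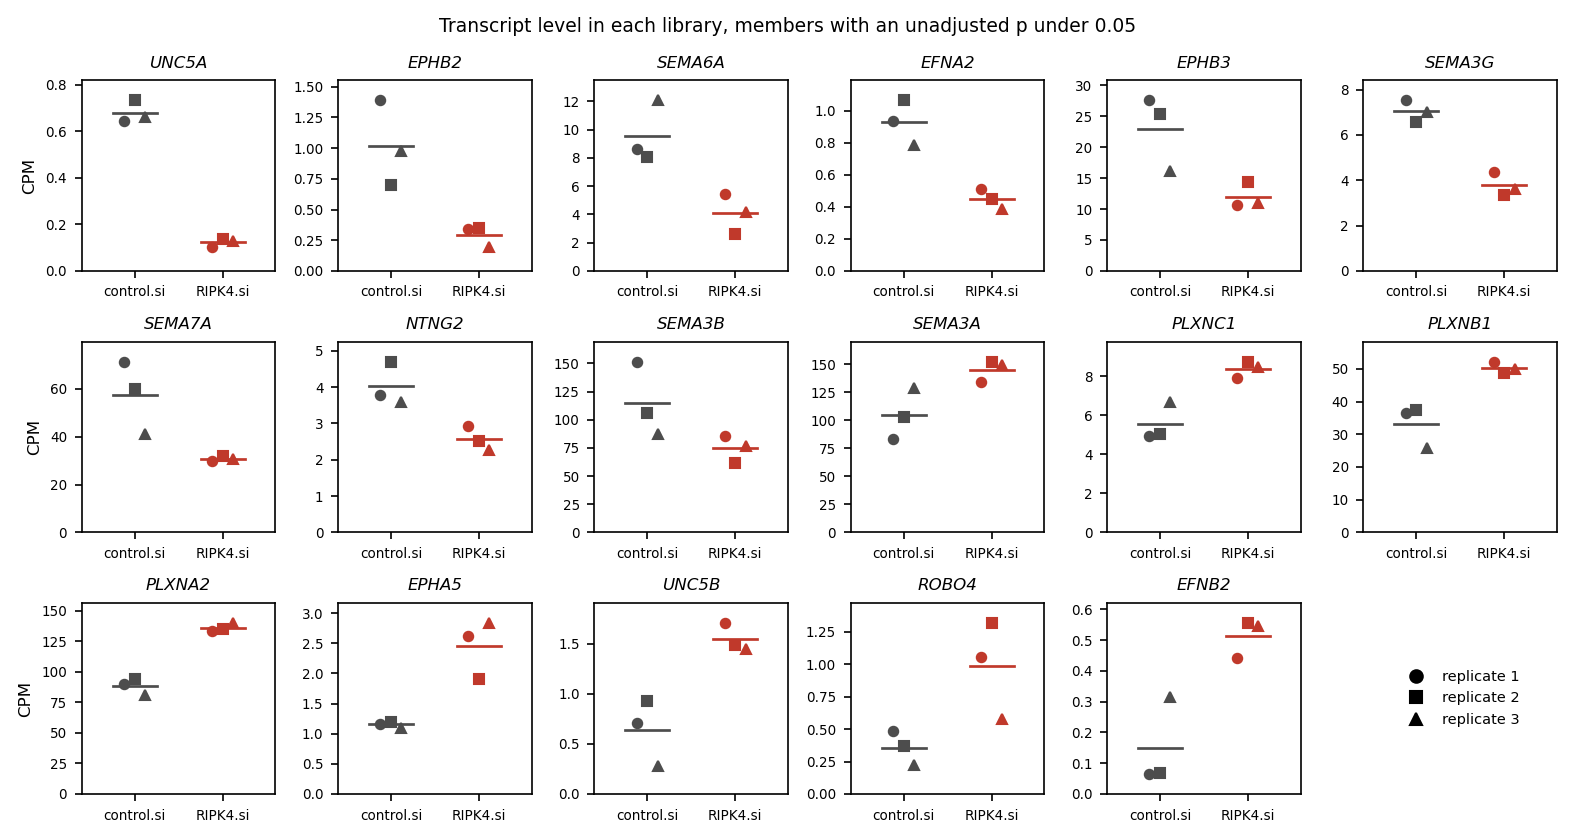
Transcript level (CPM, linear axis from 0) in each library for the 17 members with a p before adjustment under 0.05, ordered from the lowest log2 fold change (UNC5A) to the highest (EFNB2). Symbols mark the replicate number and horizontal lines the mean of 3 libraries. In each of the 17 panels the control.si and RIPK4.si libraries do not overlap.

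Of the 10 Eph receptors, 6 were tested, and 3 of these had a p before adjustment under 0.05, beside 10.8% of all genes tested. EPHB2 and EPHB3, which bind ephrin-B ligands, were lower in RIPK4.si, and EPHA5, which binds ephrin-A ligands, was higher. EPHB3 (chr3:184561785-184582408, plus strand) was at 27.5, 25.3 and 16.1 CPM in control.si and at 10.6, 14.3 and 11 CPM in RIPK4.si. The lowest control.si library was again replicate 3, and it was still above the RIPK4.si libraries. The log2 fold change was -0.94 (SE 0.232), with an adjusted p of 0.126 from edgeR, 0.0165 from DESeq2, 0.00986 with the GC trend removed and 0.0137 without control.si replicate 3 (range 0.00986 to 0.545).

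EPHB2 (chr1:22710839-22921500, plus strand) was at 1.39, 0.699 and 0.976 CPM in control.si and at 0.341, 0.346 and 0.193 CPM in RIPK4.si, which is 28.7% of the control.si mean. The groups did not overlap, with a log2 fold change of -1.79 (SE 0.423) and an adjusted p of 0.112 from edgeR, 0.0492 from DESeq2 and 0.0470 with the GC trend removed (range 0.0470 to 0.526). EPHA5 (chr4:65319563-65670495, minus strand) was at 1.16, 1.20 and 1.10 CPM in control.si and at 2.62, 1.90 and 2.83 CPM in RIPK4.si. The control.si libraries agreed within 0.1 CPM and all RIPK4.si libraries were higher, with a log2 fold change of 1.09 (SE 0.261) and an adjusted p of 0.118 from edgeR and 0.0447 from DESeq2 (range 0.0447 to 0.549). EPHA5-AS1 overlaps EPHA5 on the opposite strand.

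The most abundant Eph receptors did not pass the test. EPHA3, a receptor of ephrin-A5, was at 124, 140.5 and 150.5 CPM in control.si and at 115, 130.1 and 120.1 CPM in RIPK4.si, with overlapping groups and a 95% interval of the log2 fold change from -0.51 to 0.14. EPHA2, which is often raised in melanoma, had a log2 fold change of 0.17 (SE 0.205, adjusted p = 0.887), and EPHB4, the receptor of ephrin-B2, had 0.22 (SE 0.239, adjusted p = 0.868). Without control.si replicate 3 the log2 fold changes were -0.025 for EPHA2 and -0.0032 for EPHB4, and without control.si replicate 1 they were 0.37 and 0.48.

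All 8 ephrins were tested and none passed. EFNB2 (chr13:106489745-106535662, minus strand), the transmembrane ligand of EPHB4 and EPHB2, was at 0.0646, 0.0666 and 0.315 CPM in control.si and at 0.443, 0.554 and 0.547 CPM in RIPK4.si. It had the highest fold change of the members, 1.75 on the log2 scale (SE 0.598, adjusted p = 0.293), from 14 counts in control.si and 46 in RIPK4.si, a ratio of 3.37 with an exact 95% interval of 1.82 to 6.64 for counting error. Of the 14 counts 10 came from control.si replicate 3, and without that library the adjusted p was 0.0454 and the log2 fold change 2.90 (range of adjusted p 0.0454 to 0.759). In that fit control.si replicates 1 and 2 held 2 counts each. EFNB2 passed the filter on low counts there only through RIPK4.si, with 13, 16 and 17 counts. An unnamed gene lies opposite its exons. EFNA2 (chr19:1285873-1301431, plus strand), a lipid-anchored ligand of EphA receptors, was at 0.936, 1.07 and 0.787 CPM in control.si and at 0.511, 0.450 and 0.386 CPM in RIPK4.si. The groups were apart, with a log2 fold change of -1.04 (SE 0.337, adjusted p = 0.254). EFNB3, the most abundant ephrin per kb, was at 33.9, 30.6 and 20.8 CPM in control.si and at 16.5, 28.5 and 18.9 CPM in RIPK4.si, which overlap, with a log2 fold change of -0.42 (SE 0.253, adjusted p = 0.652). On leaving out 1 library it ran from -0.68 (without RIPK4.si replicate 2) to -0.25 (without RIPK4.si replicate 1). The other ephrins lay between -0.34 (EFNA1) and 0.22 (EFNA3). Leaving out 1 library moved EFNA1 to between -0.89 (without RIPK4.si replicate 1) and -0.11 (without control.si replicate 3), and EFNA3 was at -0.13 without RIPK4.si replicate 1 and at -0.066 without control.si replicate 3. EFNA3 and EFNA4 share exons with a read-through transcript of the same strand. How the counting treated reads of the shared exons is not stated, so their counts could be incomplete.

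To set the ligands and receptors beside the genes that act with them, 76 further genes of the same pathways were followed (coreceptors, adaptors, GTPase regulators and cytoskeletal effectors), of which 72 were in the table and 66 were tested. None was called by edgeR, 7 had a p before adjustment under 0.05 (10.6%, beside 10.8% of all genes tested), DESeq2 called 3 (2.91% of all genes) and edgeR with the GC trend removed called 5 (3.27% of all genes). Of the 7, DRAXIN was at 2.62 ± 0.731 CPM in control.si and 1.06 ± 0.275 CPM in RIPK4.si (SD, n = 3 each). It encodes a secreted antagonist that binds DCC and netrin-1, and its log2 fold change was -1.31 (adjusted p = 0.123 from edgeR and 0.0286 from DESeq2). FLRT1 and FLRT2, adhesion proteins of a family that binds UNC5 receptors, had log2 fold changes of -1.17 and -0.59. ADAM10, the protease that sheds ephrins and L1CAM, had -0.76, the adhesion protein L1CAM had -0.62 and TIAM1, an activator of Rac, had -0.68. The 1 gene of the 7 that was higher was GIPC1, an adaptor that binds the tail of NRP1. It was at 105, 72.6 and 49.0 CPM in control.si and at 119, 179 and 137 CPM in RIPK4.si, with 0.94 on the log2 scale (adjusted p = 0.193 from edgeR and 0.0326 from DESeq2).

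The tested members had a median GC content of 58.6% in their longest transcript, beside 47.9% over all genes tested, but ranged from 36.7% (SEMA3A) to 69.7% (SEMA6B). Of the 45 tested members with a mean of at least 1 CPM, 26 had a GC content above 55%, and all 26 were lower in control.si replicate 3 than in control.si replicate 1, by log2 ratios between -1.33 and -0.074. Of the 9 with a GC content under 45%, 8 were higher in replicate 3. Between RIPK4.si and control.si the 2 sets had the same median log2 ratio of 0.069. The control.si mean averages over the opposite trends of replicates 1 and 3, so these medians cannot show how GC content bears on single members.

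**Figure D4:**
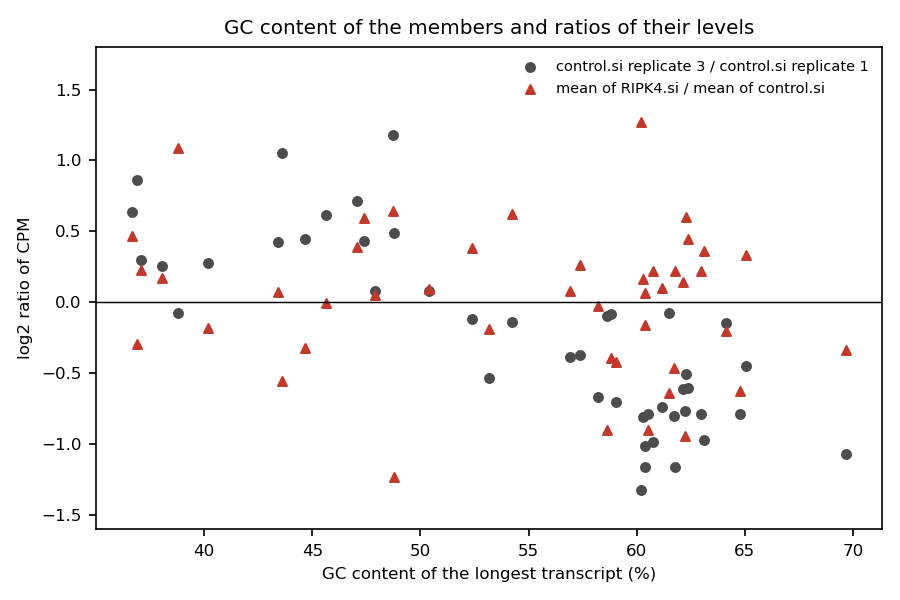
GC content of the longest transcript (percent) and log2 ratio of levels for the 45 tested members with a mean of at least 1 CPM. Grey circles give control.si replicate 3 over control.si replicate 1 and lie above 0 for 8 of 9 members under 45% GC and below 0 for all 26 members above 55%. Red triangles give the mean of RIPK4.si over the mean of control.si and are on both sides of 0 at high and low GC content.

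Because a guide RNA can repress transcripts through short matches in the 3′ UTR, the longest annotated 3′ UTR of each member was searched for the 7 bases ACAGCTT and AGCAACC on the transcribed strand. These 2 sequences do not come from the study. They were chosen with earlier results of these data known and were compared with no siRNA sequence, and their relation to levels over all genes was not tested here. ACAGCTT was present in 8 of the 52 tested members without UNC50 (15.4%) and in 15.9% of 12954 protein-coding genes tested. It was in 2 of the 9 members that were lower with a p before adjustment under 0.05, in 3 of the 8 that were higher and in 3 of the remaining 35. AGCAACC was in 8 of the 52 (15.4%) and in 8.23% of the protein-coding genes, among them EPHB2 of the 9 lower members and PLXNC1 of the 8 higher. Members had longer 3′ UTRs than other genes, with a median of 2057 bases beside 1512. The sites of ACAGCTT in the 5 members of the 17 that hold it are shown in 30 bases of GRCh38 each, 5′ to 3′ on the transcribed strand with the 7 bases in capitals, to let the surroundings of matches in lower and higher genes be compared. SEMA3G and SEMA6A were lower in RIPK4.si and the other 3 genes higher.
SEMA3G, chr3:52433558-52433587, minus strand: agaaaaagtggACAGCTTctgccaaccaca
SEMA6A, chr5:116446004-116446033, minus strand: ccgccagtgttACAGCTTtctgttgcagca
SEMA3A, chr7:83957518-83957547, minus strand: aaccaaggaaaACAGCTTtgttatcatttc
PLXNC1, chr12:94305422-94305451, plus strand: aaggcacatgcACAGCTTttagaaagcata
PLXNC1, chr12:94307076-94307105, plus strand: aaggatcagctACAGCTTtatctaagtatt
EFNB2, chr13:106492869-106492898, minus strand: cgtcgcgctggACAGCTTacctagtcttgt
EFNB2, chr13:106492409-106492438, minus strand: cgctggcaacaACAGCTTcagtccatgggt
EFNB2, chr13:106490068-106490097, minus strand: tgtatttagctACAGCTTgtttaacggcag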

How the data were processed

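Poly(A) RNA of the 6 libraries was sequenced in paired reads (BGISEQ-500). The authors trimmed adapters with Cutadapt, aligned with TopHat to GRCh38.p13 and assigned read pairs to genes with HTSeq, ignoring strand. The deposited counts are raw whole numbers of read pairs for 24526 genes, each with 6 or more over the libraries. The deposited signal values (counts divided by size factors from DESeq2) were not used. The deposited fold (ratio), log2 fold change and p-value columns hold the authors' own DESeq2 comparison and were not used either.

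The counts were tested in R 4.3.3 with the quasi-likelihood test of edgeR 4.0.16, after TMM scaling and its filter on low counts, with condition as the only term and Benjamini-Hochberg adjustment over 16297 genes. A gene was called at an adjusted p under 0.05. Where no other method is named, an adjusted p comes from this test. Standard errors are the log2 fold change divided by the square root of F, 95% intervals of fold changes use the t distribution with the 9.33 degrees of freedom of the fit, and CPM are counts per 1000000 of the scaled library size. GENCODE release 44 held 24416 of the identifiers and gave exonic lengths, GC content, gene overlaps and 3′ UTRs on GRCh38. All 63 members lay on the same chromosome and strand there as in the table, whose gene coordinates are printed. Related genes can share reads, which was not resolved.

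The members, the pathway list and the 2 sequences searched in 3′ UTRs were chosen with earlier results of these data known. Values in every library are given for members with an adjusted p under 0.05 by edgeR or DESeq2, for those with a p before adjustment under 0.05, and for the member of each family with the highest mean CPM per kb. Pathway genes are named where their p before adjustment was under 0.05. The alternatives were the Wald test of DESeq2 1.42.0, scaling by its size factors or by upper quartiles, no low-count filter, a minimum of 10 counts in each library, the replicate number as a block, each library's GC trend removed (lowess, span 0.3) with and without that block, and leaving out each library. The fit was tested on simulated data. The study's methods call the 3 libraries of a group biological replicates. Pairs of replicates differed by more than sampling noise, with a chi-square per degree of freedom of 12.9 to 91.4. Python 3.11.15 with numpy 2.4.6, pandas 2.3.3, scipy 1.17.1 and matplotlib 3.10.9 did the rest.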

Additional observations from a re-analysis of the deposited data

How the results depend on the processing

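The number of guidance genes called, 1 with edgeR, was 0 with no filter on low counts, 0 with at least 10 counts in every library (where UNC5A was not tested), 7 with DESeq2, 8 with the GC trend removed and between 0 and 4 on leaving out 1 library, with 4 (UNC5A, SEMA7A, EPHB3 and EFNB2) without control.si replicate 3. Of all genes tested these fits called 0.514%, 0.74%, 2.91%, 3.27% and between 0% and 1.78%, beside 0.767% in the fit reported. It stayed at 1 when edgeR used size factors from DESeq2 or the upper quartile to scale libraries. The pathway genes called, 0 with edgeR (7 at a p before adjustment under 0.05), were 3 with DESeq2, 5 with the GC trend removed and between 0 and 2 on leaving out 1 library. The count of members with a p before adjustment under 0.05 ran from 12 to 23 over all alternatives, while the share of all genes with such a p ran from 6.48% to 16.2%, and with at least 10 counts in every library it was 12 of the 47 members tested there (11.2% of all genes). The median log2 fold change of the members ran from -0.025 (without control.si replicate 3) to 0.14, and that of RIPK4 from -2.06 to -1.74 on leaving out 1 library, with RIPK4 no longer called without control.si replicate 2 or any 1 of the RIPK4.si replicates. Of 24 members followed singly, 300 of 329 values under alternatives kept their direction and their side of the threshold, 22 passed it, 7 (all UNC5A) no longer did and 0 changed sign. These members had a p before adjustment under 0.05, were called by DESeq2 or were the highest per kb of their family. Most were thus chosen by their difference in the same libraries, so their kept signs are not independent support. Of the 36 members tested with a p before adjustment of 0.05 or more, 14 changed sign on leaving out at least 1 library. Deviations of libraries with the same replicate number had correlations of -0.24, 0.25 and 0.35 for numbers 1, 2 and 3, and since not every pair was above 0.1 the number was not taken to pair them. Such correlations cannot decide whether libraries were paired, because the control.si libraries also differed with GC content. Figure legends of the study speak of 3 independent experiments. A block on the replicate number gave 0 guidance genes called (0.804% of all genes), and with the GC trend removed as well 6 guidance genes (UNC5A, SEMA3B, SEMA6A, SEMA7A, PLXNA2 and EPHB3) and 3 pathway genes (2.66% of all genes). At this depth, genes under about 1 CPM rest on few counts, as for UNC5A and EFNB2.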
